A study of Mus musculus with 8 samples.

Results

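Dppa1, Dppa2, Dppa3, Dppa4 and Dppa5a are 5 genes named as developmental pluripotency associated, after their expression in early embryos and pluripotent cells rather than after a shared protein family. They were taken by symbol from a count table of RNA-seq in mouse embryonic stem cells (mESCs), where they held 5 of the 24062 gene rows, and were followed across 4 conditions with 2 libraries each. All 8 libraries came from 1 Setdb1 conditional KO mESC line, #33-6, kept in medium with LIF on gelatin. WT mESCs were this line without treatment, so that they carried the conditional Setdb1 allele as well. UNC0642-treated mESCs received 2 µM UNC0642, an inhibitor of the H3K9 methyltransferases G9a and GLP, for 3 days. Setdb1 KO mESCs received 800 nM 4-hydroxytamoxifen (4-OHT) for 5 days to delete Setdb1, which encodes another H3K9 methyltransferase. UNC0642-treated Setdb1 KO mESCs, written KO/UNC mESCs from here on, received 800 nM 4-OHT for 2 days and then 2 µM UNC0642 for 3 days. No condition with 4-OHT in cells without the conditional allele was analysed here, so 4-OHT and the loss of Setdb1 cannot be told apart in these libraries.

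Dppa2 and Dppa4 encode small chromatin proteins with a SAP DNA-binding domain that work as a pair. They are known as activators of Dux, the transcription factor that switches on the 2-cell programme, a set of genes and MERVL retroviral elements used at zygotic genome activation and by rare cells in mESC cultures. Dppa3, also called Stella or PGC7, is a maternal factor that protects the zygotic genome from loss of DNA methylation and keeps UHRF1 from recruiting DNMT1. Dppa5a, also called Esg1, encodes a KH-domain RNA-binding protein abundant in naive mESCs. Dppa1 was found among transcripts of early embryos, and less is known of its function.

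The genes lie at 4 places in the genome (GRCm38, GENCODE M21). Dppa4 (chr16:48283733-48294237, plus strand) and Dppa2 (chr16:48303908-48319723, plus strand) are neighbours whose starts are 20.2 kb apart, with Dppa4 upstream. Dppa3 is at chr6:122626410-122630272 on the plus strand, Dppa5a at chr9:78367052-78368177 on the minus strand and Dppa1 at chr11:46607772-46629261 on the minus strand. All are protein-coding. Parts of 3 of the transcripts recur in annotated copies that have no row in the count table, so that reads from these stretches may be shared. Of the 100-base windows along the transcripts, 23.9% of those of Dppa2, 14.0% of those of Dppa4 and 3.08% of those of Dppa5a were found in another annotated gene. The levels of these 3 genes are therefore uncertain, and the share of reads affected was not measured. No window of Dppa1 or Dppa3 was shared.

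RefSeq's promoter table (GRCm38.p6) held an entry for 1 of the 5 members, Dppa1. Its 250 bases upstream of the start (chr11:46629275-46629524, minus strand) are shown with CG dinucleotides in capitals, as no other member had an entry. Dppa1 had no measurable transcript in these mESCs, and a link of this to the sequence was not tested.
Dppa1 upstream region: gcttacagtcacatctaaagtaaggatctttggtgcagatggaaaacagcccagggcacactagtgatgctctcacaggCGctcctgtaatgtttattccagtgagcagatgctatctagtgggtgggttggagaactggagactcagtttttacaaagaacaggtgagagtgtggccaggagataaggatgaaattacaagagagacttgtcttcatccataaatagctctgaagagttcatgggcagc
The stretch held 1 CG and was 45.6% G or C. At most 1 CG was found in 18.8% of the 32851 promoter entries of the same length, whose median was 6 CG and 52.4% G or C.

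The libraries held 11702590 to 26807807 counts on genes and transposable element subfamilies, and the limit of 3 counts corresponded to 0.112 to 0.256 counts per 1000000 counts (CPM). Correlations of log2 CPM between the libraries of a condition were 0.933 to 0.948. Setdb1, the targeted gene, was at 169 and 127 CPM in WT, 130 and 86.4 in UNC0642-treated, 47.3 and 51.0 in Setdb1 KO and 61.1 and 34.1 in KO/UNC mESCs. All 4 libraries treated with 4-OHT were below the other 4, although edgeR's test did not call the difference from WT (adjusted p = 0.181 for Setdb1 KO and 0.0746 for KO/UNC). A second fit, with same-numbered libraries as blocks (the blocked fit), did (adjusted p = 0.0164 and 0.0059). Same-numbered libraries deviated together across conditions, and values within each replicate number are therefore given beside the pooled ones. Summed over 16 pluripotency genes the libraries held 4417 to 7760 CPM, against 6.10 to 24.2 for 6 fibroblast, 11.7 to 69.8 for 6 primitive endoderm, 14.8 to 69.7 for 7 trophectoderm and 55.7 to 343 for 6 primed epiblast and germ layer genes.

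Dppa5a was by far the most abundant of the 5 and Dppa1 was at the detection limit. Per transcript length, in CPM per kb of exon (RPKM), WT mESCs held 735.5 ± 1.17 (SD, n = 2) for Dppa5a, 68.0 ± 3.65 for Dppa4, 53.7 ± 6.55 for Dppa2 and 12.9 ± 5.37 for Dppa3. Of 23641 genes with an annotated length, 0.0931% were higher than Dppa5a in WT mESCs, 2.64% higher than Dppa4, 3.52% higher than Dppa2 and 15.1% higher than Dppa3. The order of Dppa5a above both Dppa4 and Dppa2, and of these above Dppa3, held in each of the 8 libraries on the RPKM scale. The order of Dppa2 against Dppa4 was not set, since the annotated Dppa2 transcripts are 2447 and 1948 bases long and the coding Dppa4 transcripts 1479 and 1271, and RPKM over all exons depends on this choice. Dppa1 had 0 counts in 7 libraries and 1 count in KO/UNC replicate 2. This is under the limit of 3 counts in each library, and no fold change was computed.

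Of the 4 members with enough counts for a test, none was called in any comparison by edgeR's quasi-likelihood test at an adjusted p of 0.05. In KO/UNC mESCs the fitted level of Dppa2 was 2.05-fold, of Dppa4 1.71-fold, of Dppa5a 1.404-fold and of Dppa3 0.617-fold that of WT. The plot of the members by library shows that the 2 replicates of a treated condition were often as far apart as the conditions.

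**Figure D1:**
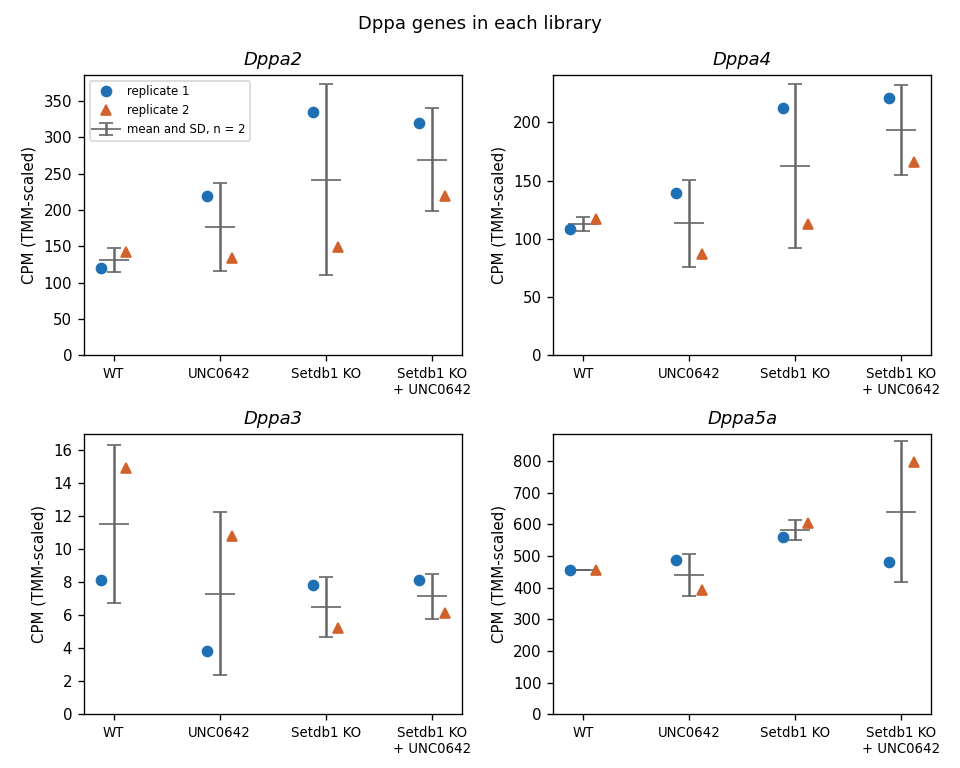
CPM (TMM-scaled, vertical axes from 0) of Dppa2, Dppa4, Dppa3 and Dppa5a in each of the 8 libraries, by condition; circles are replicate 1, triangles replicate 2, and bars the mean and SD of 2 libraries. Dppa2 and Dppa4 were highest in replicate 1 of the conditions with Setdb1 KO (334 and 320 CPM for Dppa2), whereas Dppa5a was highest in KO/UNC replicate 2 (797 CPM).

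Dppa2, the first of the pair of 2-cell activators, was at 120 and 143 CPM in WT replicates 1 and 2, 219 and 134 in UNC0642-treated, 334 and 149 in Setdb1 KO, and 320 and 219 in KO/UNC mESCs. Replicate 2 was above replicate 1 in WT and below it in the 3 treated conditions. Both libraries of Setdb1 KO and both of KO/UNC were above both WT libraries, while the UNC0642-treated libraries lay on either side of the higher WT library. Relative to the same-numbered WT library, replicate 1 was 1.83-fold in UNC0642-treated, 2.78-fold in Setdb1 KO and 2.66-fold in KO/UNC mESCs. In replicate 2 the ratios were 0.936, 1.04 and 1.53. The condition means were in the order WT (131 ± 16.0 CPM), UNC0642-treated (176 ± 60.6), Setdb1 KO (241 ± 131) and KO/UNC (269 ± 71.4), but no pair of neighbours in this order differed by more than the larger of their SDs.

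For KO/UNC against WT mESCs, edgeR gave Dppa2 a log2 value of 1.04 ± 0.50 (fold change with its SE), with a 95% interval of -0.10 to 2.17 and an adjusted p of 0.325. With the replicate block the value was 0.96, the interval 0.22 to 1.70 and the adjusted p 0.0773. The blocked fit gave 33.7% of all features an unadjusted p under 0.05 in this comparison. Its interval for Dppa2 lay above 0, but after adjustment over all features the call was not made by edgeR. DESeq2 without the block did not call it either (adjusted p = 0.278), whereas DESeq2 with the block, an alternative added after the data were seen, did (log2 fold change 0.97, adjusted p = 0.0370). That fit called 3876 features in this comparison. In Setdb1 KO mESCs the value for Dppa2 was 0.88 ± 0.50 (adjusted p = 0.779), and without Setdb1 KO replicate 1 it was 0.17, so the size of this difference rested on that library. In UNC0642-treated mESCs it was 0.42 ± 0.50 (adjusted p = 1), and 0.027 without UNC0642-treated replicate 1.

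Dppa4, the partner of Dppa2, was at 109 and 117 CPM in WT replicates 1 and 2, 140 and 86.8 in UNC0642-treated, 212 and 113 in Setdb1 KO, and 221 and 166 in KO/UNC mESCs. As for Dppa2, replicate 1 was the higher library in each treated condition and the lower one in WT. The libraries of KO/UNC mESCs were both above those of WT and of UNC0642-treated mESCs, whereas Setdb1 KO replicate 2 fell between the WT libraries. The condition means were 113 ± 6.07 CPM in WT, 113 ± 37.5 in UNC0642-treated, 163 ± 70.4 in Setdb1 KO and 193 ± 38.7 in KO/UNC mESCs. No pair of neighbours in this order differed by more than the larger of their SDs.

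The log2 fold change of Dppa4 in KO/UNC against WT mESCs was 0.77 ± 0.45, with a 95% interval of -0.25 to 1.79 and an adjusted p of 0.428 in edgeR. The blocked fit gave 0.73 (0.09 to 1.37, adjusted p = 0.105), again above 0 before adjustment only. Against UNC0642-treated mESCs, which isolates the 4-OHT treatment in cells that all had the inhibitor, the value was also 0.77 ± 0.45 (adjusted p = 0.782), and 0.79 with the block (adjusted p = 0.167). With UNC0642 alone the log2 fold change of Dppa4 was 0.00, with an interval of -1.01 to 1.02 that spans changes of about 2-fold either way. In Setdb1 KO mESCs the value was 0.52 ± 0.45 (adjusted p = 0.985) and became -0.0055 without Setdb1 KO replicate 1.

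Dppa3, the maternal methylation factor, was the least abundant member with a testable level. It was at 8.10 and 14.9 CPM in WT replicates 1 and 2, 3.81 and 10.8 in UNC0642-treated, 7.79 and 5.23 in Setdb1 KO, and 8.10 and 6.14 in KO/UNC mESCs, from 78 to 412 counts a library. The libraries of both Setdb1 KO conditions were below those of WT, by the smallest margins in replicate 1, where the ratios to WT were 0.962 and 1.00. In replicate 2 these ratios were 0.352 and 0.413. The means were 11.5 ± 4.79 CPM in WT, 7.28 ± 4.91 in UNC0642-treated, 7.12 ± 1.38 in KO/UNC and 6.51 ± 1.81 in Setdb1 KO mESCs, and neighbours in this order again differed by less than the larger of their SDs. edgeR's log2 fold change against WT was -0.66 ± 0.63 with UNC0642, -0.82 ± 0.63 in Setdb1 KO and -0.70 ± 0.63 in KO/UNC mESCs, none called (adjusted p = 1, 0.941 and 0.650). Without WT replicate 2 the last 2 were -0.32 and -0.17, and the value with UNC0642 was -0.095 without UNC0642-treated replicate 1 and -1.63 without replicate 2.

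Dppa5a, the KH-domain gene, was at 456 and 455 CPM in WT replicates 1 and 2, 486 and 393 in UNC0642-treated, 560 and 606 in Setdb1 KO, and 482 and 797 in KO/UNC mESCs. WT had the closest replicates of any condition. Both libraries of Setdb1 KO and both of KO/UNC mESCs were above the WT libraries, and unlike Dppa2 and Dppa4 the higher of them was replicate 2. The means were 439 ± 66.1 CPM in UNC0642-treated, 455 ± 0.726 in WT, 583 ± 32.2 in Setdb1 KO and 639 ± 223 in KO/UNC mESCs. In this order only the step from WT to Setdb1 KO was larger than the SDs on both sides of it, and edgeR, which shares its estimate of the spread over genes and conditions, gave that step a log2 fold change of 0.36 ± 0.43 (adjusted p = 1). In KO/UNC mESCs the log2 fold change against WT was 0.49 ± 0.43 (adjusted p = 0.641), and 0.084 without the library at 797 CPM. In UNC0642-treated mESCs it was -0.05 ± 0.43 (adjusted p = 1).

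**Figure D2:**
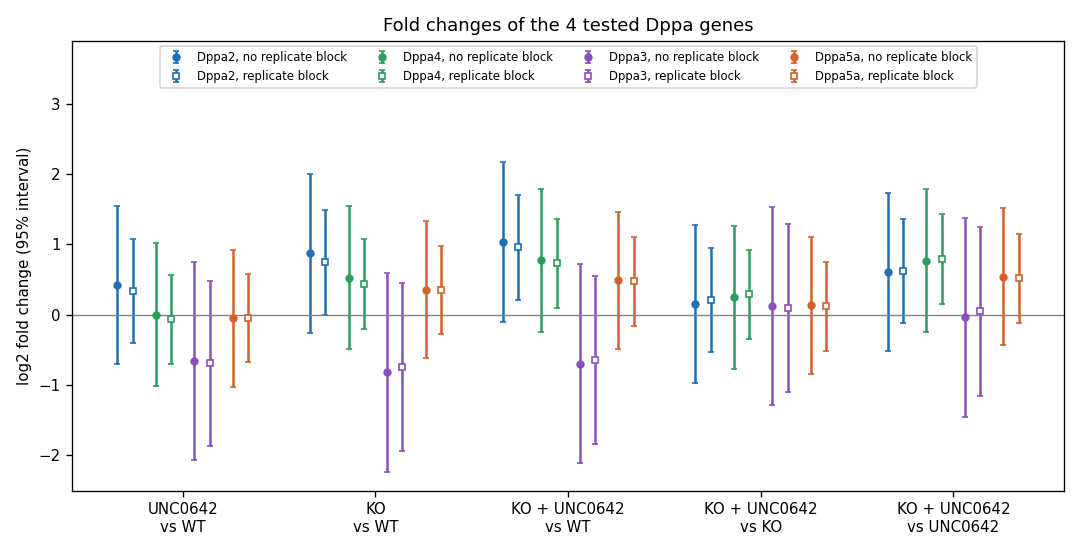
Log2 fold changes (vertical axis) of Dppa2, Dppa4, Dppa3 and Dppa5a in 5 comparisons; filled circles are edgeR's fit without the replicate block, open squares the fit with it, and bars 95% intervals that are not adjusted for the number of features. The intervals without the block all span 0. Those with it lie above 0 for Dppa2 and Dppa4 in KO/UNC against WT mESCs and for Dppa4 in KO/UNC against UNC0642-treated mESCs. In the blocked fit 33.7% of all features had an unadjusted p under 0.05 in the first of these comparisons and 18.9% in the second.

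The counts of members are set here against the same counts over all 16245 tested features (15313 genes and 932 transposable element subfamilies). The 3 comparisons with WT share both WT libraries. In UNC0642-treated against WT mESCs none of the 4 members was called, and edgeR called 0% of all features; 545 of them had an unadjusted p under 0.05, DESeq2 called 120 and the blocked fit 27 (0.166%). No member was without overlap between these conditions, where 13.7% of features were higher in both libraries and 10.7% lower. In Setdb1 KO against WT mESCs none of the 4 was called, against 1.12% of features (4.3% with the block). Dppa2 and Dppa5a were higher and Dppa3 lower without overlap, as were 17.5% and 13.1% of features. In KO/UNC against WT mESCs none was called, against 4.11% of features (17.2% with the block, and 0 features without WT replicate 1). There Dppa2, Dppa4 and Dppa5a were higher and Dppa3 lower in both libraries, so that all 4 were without overlap, beside 22.3% and 21.1% of features.

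The effect of UNC0642 in Setdb1 KO cells and of 4-OHT in UNC0642-treated cells was compared as well, with the limit that 4-OHT is given as 5 days for Setdb1 KO and as 2 days before the inhibitor for KO/UNC mESCs. Whether 4-OHT stayed in the medium during the 3 days with UNC0642 is not given in the sources used here, so the length of 4-OHT exposure may or may not differ between them. KO/UNC against Setdb1 KO mESCs gave log2 fold changes of 0.16 for Dppa2, 0.25 for Dppa4, 0.12 for Dppa3 and 0.13 for Dppa5a, all with adjusted p of 1.00. The libraries of every member overlapped, where 12.2% of features were higher and 13.3% lower without overlap. edgeR called 0% of features in this comparison, with 744 at an unadjusted p under 0.05, 103 called by DESeq2 and 0.129% called with the block. Against UNC0642-treated mESCs the log2 fold changes were 0.61 for Dppa2, 0.77 for Dppa4, -0.04 for Dppa3 and 0.54 for Dppa5a, none called, against 1.16% of features (4.65% with the block), and Dppa4 was higher without overlap, as were 16.3% of features (16.7% were lower). The interaction of UNC0642 and Setdb1 KO, which is the change with UNC0642 in Setdb1 KO cells minus that in cells without 4-OHT, had log2 values of -0.27 ± 0.71 for Dppa2, 0.25 ± 0.64 for Dppa4, 0.78 ± 0.89 for Dppa3 and 0.18 ± 0.61 for Dppa5a. All adjusted p were 1.00 and edgeR called 0% of features with and without the block, with 122 at an unadjusted p under 0.05 and 1 called by DESeq2. The median log2 fold change of the 4 tested members against WT was -0.02 in UNC0642-treated, 0.44 in Setdb1 KO and 0.63 in KO/UNC mESCs, beside medians of -0.02, -0.02 and -0.01 over all features.

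Dppa2 and Dppa4 went together from library to library. Pearson's r of their log2 CPM over the 8 libraries was 0.952, which placed Dppa4 at rank 30 among the 15312 genes compared with Dppa2 and Dppa2 at rank 8 among those compared with Dppa4. These points share their conditions and replicate numbers, so the value is a description. Dppa5a had r of 0.350 with Dppa2 and 0.444 with Dppa4, and Dppa3 had -0.285, -0.222 and -0.467 with Dppa2, Dppa4 and Dppa5a. The genes with the pattern nearest to Dppa2 were Chmp1b (0.985), Cflar (0.983) and Zfp36l1 (0.977), and those nearest to Dppa4 were Sap30bp (0.974), 4930469G21Rik (0.963) and Fam196a (0.962). For Dppa3 they were Gap43 (0.941), Otx1 (0.935) and Hspa1l (0.928), and for Dppa5a Zfp954 (0.953), Laptm4a (0.940) and Cyp2c69 (0.937).

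Dppa2 was lower relative to Dppa4 in both WT libraries than in the other 6. Among close gene pairs 10.1% had WT apart in this way, in either direction. The ratio of Dppa2 to Dppa4 counts in a library does not depend on the library's depth or scaling, and was looked at after the values were seen. It was 1.10 and 1.22 in WT replicates 1 and 2, 1.57 and 1.54 in UNC0642-treated, 1.57 and 1.32 in Setdb1 KO, and 1.45 and 1.32 in KO/UNC mESCs. Both WT libraries were below the other 6, and within each replicate number WT was the lowest. The exact (Clopper-Pearson) 95% interval of the higher WT library, 1.16 to 1.27, overlapped those of Setdb1 KO replicate 2, 1.24 to 1.395, and KO/UNC replicate 2, 1.27 to 1.37. These intervals cover counting error only. Of the 6 pairs among the tested members, this was the only one with WT apart from the other 6 libraries. Among 6771 pairs of tested genes that start within 25 kb of each other, 10.1% had both WT libraries below or above the other 6. Reads that Dppa2 and Dppa4 share with their copies enter the ratio, and their part was not tested.

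**Figure D3:**
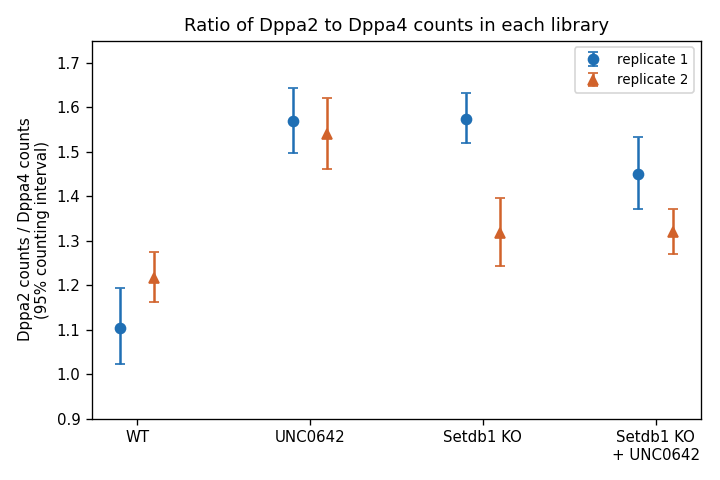
Counts of Dppa2 divided by counts of Dppa4 in each library (vertical axis from 0.9), by condition; circles are replicate 1, triangles replicate 2, and bars exact 95% intervals for counting error. The WT libraries, at 1.10 and 1.22, sit below the other 6, which lie between 1.32 and 1.57. Of 6771 pairs of tested genes that start within 25 kb of each other, 10.1% had WT below or above the other 6.

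The 2-cell programme lies downstream of Dppa2 and Dppa4 through Dux, and its members were looked at beside the pair. A list of 31 genes and elements of the 2-cell programme had 30 rows, of which 29 were tested. In KO/UNC against WT mESCs 25 of them rose and none fell by edgeR's test, beside 3.6% of all features that rose and 0.505% that fell. With the block 28 rose, beside 9.98% of all features. Of the 29, 16 would not have passed the filter on low counts in the WT libraries alone and passed it only with treated libraries counted in, so the count and the medians are a description of selected features. Of the 25 that rose, 13 were among these 16. The median fitted log2 fold change over the 29 was 5.68, and the median log2 ratio of mean CPM was 5.45 with WT counts below 3 raised to 3. The list follows what is known of these genes and was fixed with earlier results of these data in view. By smallest p the leading members were Usp17lb, Usp17le, Usp17la, BC061212 and Usp17lc, the Usp17l genes being a cluster of near-identical copies that can share reads. Usp17le had 9 and 39 counts in WT replicates 1 and 2 (log2 fold change 5.67) and Usp17la 8 and 20 (6.72). Usp17lb, with 3 and 13 counts, and Usp17lc, with 3 and 39, were at the limit in WT replicate 1, and BC061212, with 1 and 3, was at or under it in both WT libraries, so no fold is given for these. In KO/UNC replicates 1 and 2 they had 1303 and 2165 (Usp17lb), 597 and 999 (Usp17lc) and 88 and 197 counts (BC061212). The same count was 0 without WT replicate 1 and 6 without WT replicate 2, where a single library stood for WT. In Setdb1 KO mESCs 3 of the 29 rose (17 with the block, 23 by DESeq2), beside 1.11% of all features that rose and 0.00616% that fell, and either WT library left out gave 0. In UNC0642-treated mESCs 0 of the 29 were called by edgeR (5 with the block, 25 by DESeq2).

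MERVL-int, the internal part of the retroviral element of this programme, was at 97.9 and 270 CPM in WT replicates 1 and 2. It was at 5523 and 2235 in UNC0642-treated, 1917 and 709 in Setdb1 KO and 11090 and 4365 in KO/UNC mESCs. Zscan4c, a 2-cell gene used as a marker of this state, was at 5.14 and 14.5 CPM in WT, 433 and 133 in UNC0642-treated, 204 and 76.7 in Setdb1 KO and 725 and 288 in KO/UNC mESCs. As with Dppa2 and Dppa4, replicate 2 was the higher library in WT and replicate 1 the higher one in every treated condition. In bulk RNA, more cells in the 2-cell state and more RNA per such cell cannot be told apart, and this applies to the Dppa genes as well. Relative to the same-numbered WT library, MERVL-int in UNC0642-treated mESCs was 56.4-fold in replicate 1 and 8.27-fold in replicate 2. In the same libraries Dppa2 was 1.83-fold and 0.936-fold, and Dppa4 1.29-fold and 0.740-fold.

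Dux, the known direct target of Dppa2 and Dppa4, was low throughout. It had 3 and 53 counts in WT replicates 1 and 2, 35 and 122 in UNC0642-treated, 56 and 209 in Setdb1 KO and 28 and 177 in KO/UNC mESCs. Every treated library was above its same-numbered WT library in CPM, but replicate 2 was higher than replicate 1 in all 4 conditions, the reverse of Dppa2 and Dppa4 in the treated cells. Its log2 fold change in KO/UNC against WT mESCs was 2.05 ± 1.04 (adjusted p = 0.349), and the blocked fit called it (2.33, adjusted p = 0.0200). With 3 counts in WT replicate 1, Dux was at the limit there and passed the filter on low counts only with treated libraries counted in. These values therefore describe a selected feature. Dux lies in a repeat array of near-identical copies, so its count is uncertain.

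**Figure D4:**
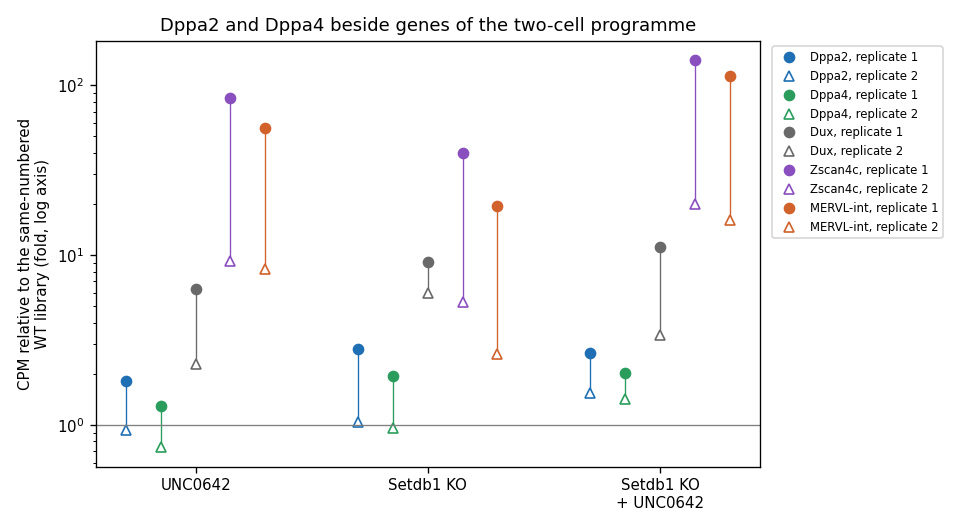
CPM of Dppa2, Dppa4, Dux, Zscan4c and MERVL-int in each treated library relative to the same-numbered WT library (fold, log axis); circles are replicate 1, open triangles replicate 2, joined by a line for each gene. Dppa2 and Dppa4 stay between 0.740 and 2.78-fold, while Zscan4c reaches 141-fold and MERVL-int 113-fold in KO/UNC replicate 1; the Dux folds of replicate 1 rest on 3 counts in WT.

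Genes around Dppa2 and Dppa4 in this pathway were looked at as well. Of 20 regulators of Dux and the 2-cell state, among them Pias4, an inhibitor of Dppa2, and Smchd1, a repressor of Dux, edgeR called none in any of the 3 comparisons with WT. Of all features it called 0% in UNC0642-treated, 1.12% in Setdb1 KO and 4.11% in KO/UNC mESCs. With the block 1 of the 20 was called in KO/UNC mESCs, Ehmt2, which encodes G9a itself. Ehmt2 was at 99.0 and 200 CPM in WT and 60.6 and 61.6 in KO/UNC mESCs (log2 fold change -1.29, adjusted p = 0.185, and 0.0235 with the block). Nkx2-5 and Syce1, whose promoters are known to need Dppa2 or Dppa4, were not called by edgeR. Nkx2-5 had at most 1.05 CPM in any library. Syce1, a gene of the meiotic synaptonemal complex, was at 7.49 and 11 CPM in WT, 11 and 18 in UNC0642-treated, 28.6 and 24.4 in Setdb1 KO and 16.3 and 23.6 in KO/UNC mESCs. Its blocked fit was called in Setdb1 KO mESCs (log2 fold change 1.52 without the block, blocked adjusted p = 0.0305). It was also called in KO/UNC mESCs (1.11 without the block, blocked adjusted p = 0.0459). Beside these calls, the blocked fit called 4.3% of all features in Setdb1 KO and 17.2% in KO/UNC against WT mESCs.

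None of 12 partners of Dppa3 and DNA methylation genes was called in any comparison, with or without the block. Of all features edgeR called 0% in UNC0642-treated, 1.12% in Setdb1 KO and 4.11% in KO/UNC against WT mESCs. With the block these shares were 0.166%, 4.3% and 17.2%. In KO/UNC against WT mESCs, Uhrf1, which brings DNMT1 to replicating DNA and is held back by Dppa3, had a log2 fold change of -0.42 ± 0.43 and Dnmt1, the maintenance methyltransferase, of -0.78 ± 0.51. Of 8 KH-domain relatives of Dppa5a and other genes of the maternal subcortical complex, 4 had enough counts for a test and none was called by edgeR. Ooep, a KH-domain gene that starts 10.5 kb from Dppa5a, was at 46.4 and 39.6 CPM in WT, 43.3 and 29.6 in UNC0642-treated, 73.3 and 66.9 in Setdb1 KO and 34.2 and 75.4 in KO/UNC mESCs. Khdc3, another KH-domain gene, and Tle6, a partner in the complex, were called lower with the block in KO/UNC mESCs. Their log2 fold changes were -2.25 and -1.21 (blocked adjusted p = 0.0347 and 0.0446). The blocked fit called 7.19% of all features lower in this comparison with WT.

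Of 16 pluripotency genes 1 was called in KO/UNC against WT mESCs, beside 4.11% of all features. It was Fbxo15, an F-box gene of undifferentiated cells, with a log2 fold change of 2.098 ± 0.47 (adjusted p = 0.0417). In the other comparisons with WT none of the 16 was called, beside 0% of all features in UNC0642-treated and 1.12% in Setdb1 KO mESCs. Of 10 primordial germ cell and germline genes, a class to which Dppa3 also belongs by its expression, 4 rose in Setdb1 KO and 5 in KO/UNC mESCs, beside 1.11% and 3.6% of all features, none fell by edgeR's test, and none was called in UNC0642-treated mESCs. The 5 were Stk31, Tex101, Mael, Dazl and Sycp3, with log2 fold changes of 2.62 to 5.27 in KO/UNC mESCs. Tex101, with 4 and 13 counts in WT replicates 1 and 2, would not have passed the filter on low counts in the WT libraries alone. It is 1 of the 4 and of the 5 that rose in Setdb1 KO and KO/UNC mESCs. Of the 10 fitted values 6 were above 0 in each of these comparisons, with medians of 1.98 and 1.95. The other 4, Prdm1, Tfap2c, Nanos3 and Kit, were below 0, and Prdm1, a regulator of germ cell specification, was called lower in Setdb1 KO mESCs with the block (16.7 and 19.6 CPM in WT, 4.78 and 6.11 in Setdb1 KO, log2 fold change -1.74, adjusted p = 0.231, and 0.0168 with the block). Among other cell type markers, Fgf5, 1 of 6 primed epiblast and germ layer genes, was called in KO/UNC against WT mESCs (adjusted p = 0.0493), beside 3.6% of all features that rose. It had 1 and 13 counts in WT and 132 and 61 in KO/UNC mESCs, and would not have passed the filter in the WT libraries alone. edgeR called none of the primitive endoderm, trophectoderm and fibroblast genes in the comparisons with WT, where it called 0%, 1.12% and 4.11% of all features. With the block 2 of the 6 primed epiblast and germ layer genes rose in Setdb1 KO and 2 in KO/UNC mESCs, beside 3.8% and 9.98% of all features. In KO/UNC mESCs 1 trophectoderm and 1 fibroblast gene fell with the block, beside 7.19%.

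Within 250 kb of the members' starts, no tested gene was called by edgeR in any of the 3 comparisons with WT. Of all features it called 0% in UNC0642-treated, 1.12% in Setdb1 KO and 4.11% in KO/UNC mESCs. The window of Dppa2 and Dppa4 held 1 other tested gene, Morc1, a germline gene, with log2 fold changes of 0.59, -0.07 and 0.39 in UNC0642-treated, Setdb1 KO and KO/UNC mESCs. Dppa3 had 10 tested neighbours of 11 rows, among them Nanog, a core pluripotency factor, with 0.22, -0.0025 and 0.46, and Gdf3, a ligand of the TGF-beta family, with 0.07, 0.06 and 0.48. Dppa5a had 9 tested neighbours of 15 rows and Dppa1 had 2 of 11. With the block 4 neighbours were called in KO/UNC against WT mESCs, where that fit called 17.2% of all features. Med7, a Mediator subunit near Dppa1, was higher. Slc2a3, a glucose transporter near Dppa3, was lower, as were Ddx43, an RNA helicase, and Cd109, a surface protein, near Dppa5a.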

How the data were processed

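Per the study's methods, the authors trimmed poly(A) RNA-seq reads with Trim Galore 0.3.7, aligned them with TopHat2 to mm10 and counted genes and transposable element subfamilies with TEtranscripts. The deposited values are raw counts. The strand setting is not given in the sources used here.

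After a filter on low counts (filterByExpr, minimum count 10, total 15), genes and subfamilies were tested with edgeR 4.0.16's quasi-likelihood test (R 4.3.3, TMM factors 0.810 to 1.20, all 8 libraries) with Benjamini-Hochberg adjustment, called at an adjusted p of 0.05. CPM are TMM-scaled, and RPKM divide them by the length of all annotated exons. Alternatives were DESeq2 1.42.0, other scalings and filters, the replicate number as a block, and each library left out. Deviations from the condition means correlated between same-numbered libraries for all 6 pairs of conditions (r = 0.285 to 0.663), so the numbers were taken to pair the libraries. Neither the labels nor the methods state a shared culture for a number. The study calls replicates biological, and p-values measure the spread between 2 libraries of 1 line.

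The 5 members and Setdb1 were always named. Of each list, at most 5 genes with the smallest p in UNC0642-treated Setdb1 KO against WT mESCs were named, besides genes with a known direct link to a member, neighbours within 250 kb, and the 3 genes of highest Pearson's r. The members and lists were chosen with earlier results of these data known. Fits were tested on simulated data.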

Additional observations from a re-analysis of the deposited data

How the results depend on the processing

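No result met the rules for a closer look, and groups of 2 libraries are too small for a test of outlying samples. The replicate block made no member called in edgeR, and DESeq2 with the block, added after seeing the data, called 1 of the 4 in UNC0642-treated Setdb1 KO against WT mESCs, Dppa2 (log2 fold change 0.97). Every other alternative called 0 members in every comparison. Scaling to total counts shifted the median of all features in UNC0642-treated Setdb1 KO mESCs by -0.17 against WT and -0.21 against UNC0642-treated mESCs, and put Dppa5a at 475 CPM in WT mESCs, against 457 with DESeq2's size factors.

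The log2 fold change of Dppa4 in UNC0642-treated against WT mESCs, 0.00, became -0.021 with DESeq2's size factors, -0.0058 with total counts, -0.021 by DESeq2 on 8 libraries, -0.023 by DESeq2 on 4, -0.0021 by edgeR on 4, -0.063 with the replicate block, -0.085 by DESeq2 with the block, and -0.38 to 0.28 with 1 library left out. That of Dppa3 in UNC0642-treated Setdb1 KO against UNC0642-treated mESCs, -0.04, became 0.048 with the block, 0.024 with genes only, 0.085 by DESeq2 with the block, and -0.61 to 0.91 with 1 library left out. Leaving out 1 library also turned the sign of Dppa5a in UNC0642-treated (-0.21 to 0.066) and of Dppa4 in Setdb1 KO against WT mESCs (-0.0055 to 0.88). In UNC0642-treated Setdb1 KO against Setdb1 KO mESCs it gave -0.30 to 0.85 for Dppa2, -0.12 to 0.44 for Dppa3, -0.12 to 0.77 for Dppa4 and -0.24 to 0.45 for Dppa5a. The interactions ranged from -0.71 to 0.42 for Dppa2, 0.21 to 1.78 for Dppa3 (without UNC0642-treated replicate 1 and replicate 2), -0.11 to 0.76 for Dppa4 and -0.18 to 0.49 for Dppa5a. The cause was not tested.

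Counts over all features moved far more. In UNC0642-treated Setdb1 KO against WT mESCs 667 were called by edgeR, 2790 with the replicate block, 1518 by DESeq2 and 3876 by DESeq2 with the block, but 0 without WT replicate 1 and 55 without WT replicate 2, each of which leaves 1 library assumed to vary like the others. In Setdb1 KO against WT mESCs the 182 became 698, 568 and 1359, and 0 without either WT library. In UNC0642-treated Setdb1 KO against UNC0642-treated mESCs the 189 became 755, 583 and 1469, and 6 without UNC0642-treated replicate 1. The design of 2 libraries a condition limits what could be called, and a missing call does not show that a member was the same.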
